A study of Homo sapiens with 6 samples.

Results

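The genes described here are 10 markers used to recognise breast cancer stem cells, taken by symbol from the 46427 genes of the count table: CD44, CD24, PROM1, THY1, NES, BMI1 and the aldehyde dehydrogenases ALDH1A1, ALDH1A2, ALDH1A3 and ALDH1B1. They were measured by RNA sequencing in Hs578T, a human triple-negative breast cancer cell line, which lacks the estrogen and progesterone receptors and HER2 amplification. All 6 libraries came from cells that carry a retroviral pSUPER shRNA construct and were grown in DMEM with 10% FBS and 1% antibiotics. The 3 shCTRL samples expressed a control shRNA, and the 3 shCCN3 samples expressed CCN3 shRNA #2, which targets the secreted matricellular protein CCN3 (NOV). The RNA-seq used 1 hairpin against CCN3, so an effect of lower CCN3 and an effect of that hairpin or of the selected line cannot be told apart. Nothing in the labels says whether the 3 samples of a group were separate cultures, so p-values measure the spread between these samples, which may be technical.

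Cells with high surface CD44 and low CD24 form tumors efficiently when transplanted, and the 2 proteins are the usual sorting markers for breast cancer stem cells. CD44 is the main receptor for the matrix polysaccharide hyaluronan, and CD24 is a small, heavily glycosylated protein anchored in the membrane by a lipid and typical of luminal cells. The second usual marker is aldehyde dehydrogenase activity, measured with a fluorescent substrate, to which several ALDH1 enzymes contribute. The ALDH1A enzymes oxidise retinal to retinoic acid, and ALDH1B1 is a related mitochondrial enzyme. PROM1 (CD133) and THY1 (CD90) are surface markers of stem and progenitor cells, NES encodes the intermediate filament protein nestin, and BMI1 is a polycomb protein needed for self-renewal of several adult stem cells. The comparison asks how the mRNAs of these markers stood in cells with CCN3 knockdown.

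The sequences before a transcription start of 5 genes are shown because they are the pair used for sorting and the 3 ALDH1A genes, of which ALDH1A1 and ALDH1A2 had no reads and ALDH1A3 had many. Each run is the 250 bases before the first of the starts listed by RefSeq on GRCh38.p14, written from 5′ to 3′ on the strand of the gene, with CG dinucleotides in capitals. CD24 has 3 listed starts, ALDH1A2 has 2 and the other genes shown have 1. The CD24 start used lies inside the span that RefSeq gives for the gene, so that window is not upstream of the whole gene.
CD44 promoter (chr11:35138921-35139170, plus strand): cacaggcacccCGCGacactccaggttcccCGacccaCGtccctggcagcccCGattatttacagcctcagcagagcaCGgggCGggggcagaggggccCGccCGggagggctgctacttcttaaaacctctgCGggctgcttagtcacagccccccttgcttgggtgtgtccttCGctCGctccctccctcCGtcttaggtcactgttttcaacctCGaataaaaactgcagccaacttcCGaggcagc
CD24 promoter (chr6:106975628-106975877, minus strand): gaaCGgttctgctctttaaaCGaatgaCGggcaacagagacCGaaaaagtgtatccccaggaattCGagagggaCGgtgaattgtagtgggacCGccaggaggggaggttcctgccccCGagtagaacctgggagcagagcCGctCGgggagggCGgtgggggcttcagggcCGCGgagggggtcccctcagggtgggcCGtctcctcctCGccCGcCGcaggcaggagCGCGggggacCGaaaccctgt
ALDH1A1 promoter (chr9:72953054-72953303, minus strand): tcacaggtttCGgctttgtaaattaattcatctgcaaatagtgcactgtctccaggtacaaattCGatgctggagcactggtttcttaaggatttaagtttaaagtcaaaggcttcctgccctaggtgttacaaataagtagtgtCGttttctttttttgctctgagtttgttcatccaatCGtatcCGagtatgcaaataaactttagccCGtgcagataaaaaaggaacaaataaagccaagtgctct
ALDH1A2 promoter (chr15:58065712-58065961, minus strand): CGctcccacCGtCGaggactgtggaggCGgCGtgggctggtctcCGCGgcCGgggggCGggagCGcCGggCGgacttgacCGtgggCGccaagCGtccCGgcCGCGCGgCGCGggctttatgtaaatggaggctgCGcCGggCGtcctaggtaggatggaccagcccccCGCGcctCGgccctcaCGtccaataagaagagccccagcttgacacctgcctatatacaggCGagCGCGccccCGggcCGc
ALDH1A3 promoter (chr15:100879581-100879830, plus strand): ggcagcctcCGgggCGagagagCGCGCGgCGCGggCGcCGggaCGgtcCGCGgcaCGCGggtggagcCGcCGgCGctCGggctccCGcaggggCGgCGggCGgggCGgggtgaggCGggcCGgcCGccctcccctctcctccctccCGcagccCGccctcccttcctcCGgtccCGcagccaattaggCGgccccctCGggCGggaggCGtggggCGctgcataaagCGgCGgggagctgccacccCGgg

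The window of ALDH1A1 held 6 CG dinucleotides, that of ALDH1A2 held 33 and that of ALDH1A3 held 38, against a median of 11 over 35116 windows of the same length. The ALDH1A genes with no reads thus had a CG-poor window and a CG-rich one. The windows of CD44 and CD24 held 15 and 20. The GC content was 38.4% before ALDH1A1, 72.8% before ALDH1A2 and 82.4% before ALDH1A3. On either strand, the letters GGGCGG, part of the binding motif of SP1, occurred in the windows of CD44, CD24, ALDH1A2 and ALDH1A3 and in 42.6% of all windows. The letters CCAAT occurred in those of all 3 ALDH1A genes and in 32.0% of all windows, and TATAAA occurred in none of the 5 and in 10.7% of all windows.

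The libraries held between 56159110 and 68393177 counts. A floor of 3 counts in a library corresponds to 0.0435 to 0.0540 CPM, the unit used throughout for a gene's counts after scaling to a common, TMM-normalized library size, and it covers counting error only. CCN3 mRNA itself stood at 101 ± 2.43 CPM with the control hairpin and 47.0 ± 0.469 CPM with the CCN3 hairpin (SD, n = 3 each), a log2 change of -1.10, where the log2 change is the log2 of shCCN3 over shCTRL. The shCCN3 replicate 2 library was the shallowest and stood apart from the others of its group, with a chi-square statistic of at least 37.1 per degree of freedom against each, where the other pairs within a group lay between 7.02 and 22.1. No library was therefore a copy of another. Of the markers of triple-negative status, ESR1 was at or near 0 in every library, PGR was 2.86 ± 0.332 CPM and ERBB2 77.9 ± 5.49 CPM in shCTRL cells (SD, n = 3 each). The luminal markers EPCAM, CDH1, KRT19 and ESRP1 were near 0. The luminal markers with enough reads to test all passed, KRT18 higher (log2 change 0.51, adjusted p = 0.00172, edgeR) and KRT8 (-0.52, adjusted p = 0.00221) and MUC1 (-0.45, adjusted p = 0.00145) lower in shCCN3 cells. Of the 5 mesenchymal markers, CDH2 rose (0.87, adjusted p = 9.06e-05) and the others did not pass. The mesenchymal marker VIM was 7778 ± 186 CPM in shCTRL cells. Leukocyte markers summed to between 0.422 and 0.828 CPM in shCTRL and between 0.468 and 0.812 CPM in shCCN3 libraries, with CD3E and ITGAM at 0. Endothelial markers summed to between 3.90 and 5.41 CPM and between 3.56 and 4.43 CPM, with CDH5 at 0.

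Of the 10 markers, 7 passed the filter on low counts and 3 did not. ALDH1A1, ALDH1A2 and PROM1 had no count above 3 in any library. Among the 7, CD24 and ALDH1B1 rose and CD44 and NES fell at an adjusted p below 0.05 in edgeR (quasi-likelihood, Benjamini-Hochberg), while ALDH1A3, THY1 and BMI1 did not pass it. The groups of 3 libraries did not overlap in the 4 that passed and overlapped in the 3 that did not. Across all 17419 genes tested, 33.4% passed the same threshold, 16.2% higher and 17.3% lower, the groups did not overlap for 46.3%, and 33.1% met both conditions, so passing was common in these libraries. The members cover a wide range of level. Per kilobase of the principal transcript, the shCTRL libraries had 376 ± 9.14 CPM per kilobase on CD44, 244 ± 14.6 on THY1, 49.6 ± 5.36 on ALDH1A3, 35.5 ± 1.61 on CD24, 15.1 ± 0.402 on ALDH1B1, 13.1 ± 1.60 on BMI1 and 0.341 ± 0.0205 on NES (SD, n = 3 each). The libraries of ALDH1B1 and BMI1, neighbours in this order, overlapped in shCTRL cells and no other neighbours did. In shCCN3 cells the order was the same except that CD24 (63.0 ± 1.66) stood above ALDH1A3 (42.0 ± 5.37). That exchange rests on the transcript lengths, since without them CD24 and ALDH1A3 had 158 and 165 CPM in shCCN3 cells.

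**Figure D1:**
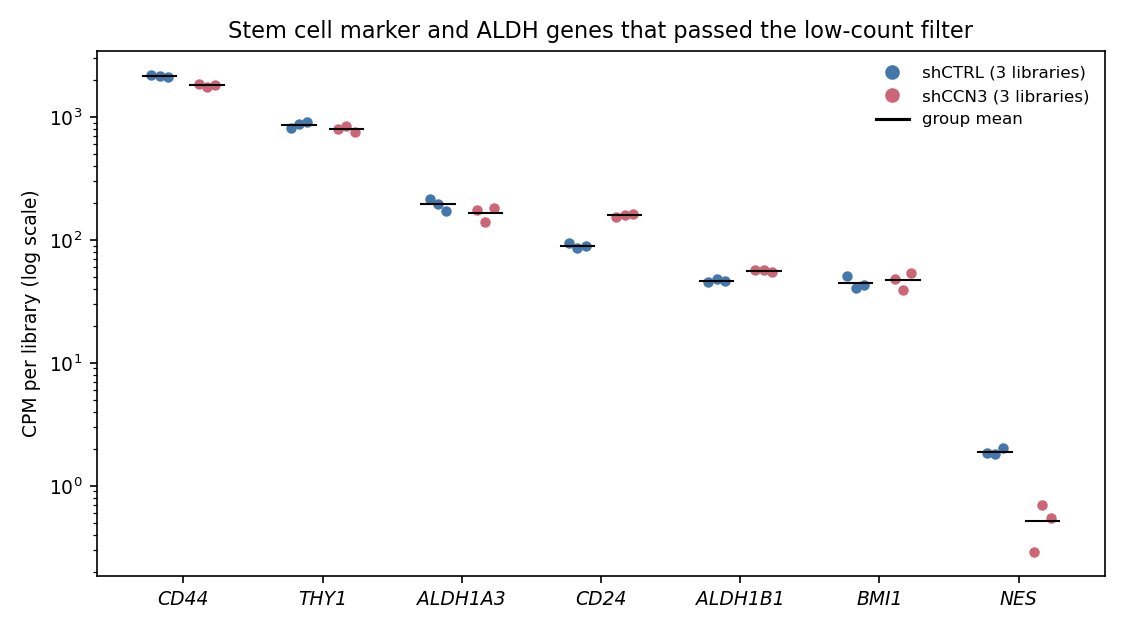
CPM on a log axis for the 7 genes that passed the low-count filter, with 1 point per library and a line at the group mean. The points of the groups are apart for CD44, CD24, ALDH1B1 and NES and overlap for THY1, ALDH1A3 and BMI1. ALDH1A1, ALDH1A2 and PROM1 had no count above 3 and are not drawn.

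CD44 mRNA was slightly lower and CD24 mRNA clearly higher after CCN3 knockdown. CD44 (Gene ID 960, chromosome 11 from 35139171 to 35232402 on GRCh38) had 2213, 2153 and 2109 CPM in the shCTRL libraries and 1847, 1763 and 1835 CPM in the shCCN3 libraries. Every shCCN3 library lay below every shCTRL library, and the libraries within a group differed little, with a coefficient of variation of 2.43% and 2.52%. The means were 2158 ± 52.4 and 1815 ± 45.8 CPM (SD, n = 3 each), a change of -15.9%. The log2 change was -0.25 (standard error 0.050, 95% interval -0.36 to -0.14, adjusted p = 0.00429, edgeR). In size this change stood at the 51.2 percentile of all genes tested, and the level of CD44 at the 99.8 percentile. Counts per gene do not separate the standard from the variant isoforms of CD44, which differ in exon use.

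CD24 (Gene ID 100133941, chromosome 6 from 106969831 to 106976855) had 93.6, 85.6 and 88.4 CPM in the shCTRL libraries and 154, 159 and 162 CPM in the shCCN3 libraries. The groups were far apart relative to their spread. CD24 rose from 89.2 ± 4.05 to 158 ± 4.16 CPM (SD, n = 3 each), a change of 77.5% and a log2 change of 0.83 (standard error 0.059, 95% interval 0.69 to 0.96, adjusted p = 1.00e-05, edgeR). The size of the change was at the 86.8 percentile of all genes tested. Chromosome 6 as a whole stood above the other genes. Over the 891 genes tested there, the median log2 change was 0.34, and 77.9% of them had a value above 0, against a median of 0.0076 over all genes tested. CD24 stood 0.49 above the chromosome's median on the log2 scale, and the 24 tested genes nearest to it had a median of 0.18. The part of this wider shift in the change of CD24 was not tested, nor was that of the luminal and mesenchymal markers, among which KRT18 and CDH2 were higher and KRT8 and MUC1 lower in the same libraries.

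CD24 has near-identical pseudogene copies, so its reads can be split between them. CD24P4 held 8.28 ± 0.681% of the summed reads of CD24 and CD24P4 in shCTRL cells and 8.59 ± 0.638% in shCCN3 cells (SD, n = 3 each), while CD24P1 was at 0 and CD24P2 had at most 3 counts. With the reads of CD24 and CD24P4 added together, the log2 change was again 0.83 (adjusted p = 1.06e-05, edgeR).

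The number of CD44 reads per CD24 read, which sets the sorting pair against each other within a library, was 23.6, 25.1 and 23.8 in the shCTRL libraries and 11.997, 11.1 and 11.3 in the shCCN3 libraries. The ratio was thus lower in each of the 3 shCCN3 libraries than in any shCTRL library. Its mean was 24.2 ± 0.810 and 11.5 ± 0.472 (SD, n = 3 each), and the difference of log2 ratios was -1.08. An exact permutation test over the libraries had a two-sided p of 0.1, which is the lowest attainable with 3 against 3. These are bulk mRNA values: they do not count cells with high CD44 and low CD24, and more cells with CD24 cannot be told apart from more CD24 mRNA per cell. The ratio also contains the CD24 value described above, and the part of the chromosome 6 shift in it was not tested.

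**Figure D2:**
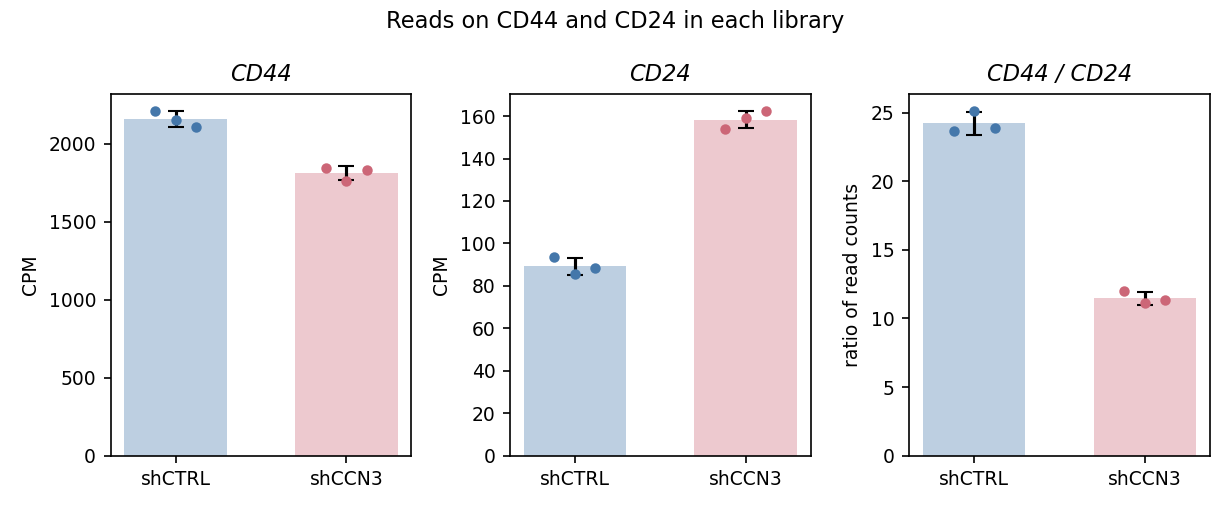
CPM of CD44, CPM of CD24 and the ratio of their read counts, with a bar at the mean, an error bar of 1 SD and 1 point per library (n = 3 per group), each axis starting at 0. CD44 went from 2158 to 1815 CPM and CD24 from 89.2 to 158 CPM, and the ratio from 24.2 to 11.5.

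Among the ALDH1 genes, ALDH1B1 rose, ALDH1A3 did not pass the test, and ALDH1A1 and ALDH1A2 were not detected. ALDH1A1, the enzyme most often named for the aldehyde dehydrogenase activity of stem cells, had 0 counts in all 6 libraries, which allows a level of up to 0.0435 to 0.0540 CPM in a library. ALDH1A2 likewise had 0 counts in all 6 libraries. Their positions are chromosome 9 from 72900671 to 72953053 and chromosome 15 from 57953429 to 58065711.

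ALDH1A3 (Gene ID 220, chromosome 15 from 100879831 to 100916626), which makes retinoic acid from retinal, was the most abundant of the 4. It had 214, 198 and 172 CPM in the shCTRL libraries and 174, 141 and 180 CPM in the shCCN3 libraries. The shCCN3 replicate 2 library was the lowest, and the other 2 shCCN3 libraries lay within the shCTRL range. The means were 195 ± 21.0 and 165 ± 21.1 CPM (SD, n = 3 each), with a coefficient of variation of 10.8% and 12.8%. The log2 change of -0.24 (standard error 0.107, 95% interval -0.48 to 0.0036, adjusted p = 0.122, edgeR) was close in size to that of CD44 but had a larger standard error. Without shCCN3 replicate 2 it was -0.13 (adjusted p = 0.222). ALDH1A3-AS1, an antisense RNA that overlaps ALDH1A3 and is listed as LOC101927751, had 6.22 ± 0.900 and 6.27 ± 0.655 CPM (SD, n = 3 each), a log2 change of 0.01 (adjusted p = 0.956), and no source used here gives the strand setting of the counting.

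ALDH1B1 (Gene ID 219, chromosome 9 from 38392702 to 38398661) had 45.3, 47.7 and 46.0 CPM in the shCTRL libraries and 57.1, 56.9 and 54.7 CPM in the shCCN3 libraries. The groups did not overlap. ALDH1B1 rose from 46.3 ± 1.23 to 56.2 ± 1.32 CPM (SD, n = 3 each), a change of 21.3% and a log2 change of 0.28 (standard error 0.058, 95% interval 0.15 to 0.41, adjusted p = 0.00525, edgeR). Over the 709 genes tested on chromosome 9, the median log2 change was -0.07, below that of ALDH1B1.

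The summed level of the 4 ALDH1 genes, per kilobase of transcript, was 69.3, 65.9 and 58.9 CPM per kilobase in the shCTRL libraries and 62.9, 54.5 and 63.8 in the shCCN3 libraries. These ranges overlapped, with means of 64.7 ± 5.30 and 60.4 ± 5.14 (SD, n = 3 each, exact permutation p = 0.4, two-sided). Within that sum, the share of ALDH1A3 was 78.7, 76.4 and 74.5% in shCTRL and 70.4, 66.0 and 72.0% in shCCN3 libraries. The shares did not overlap, and the permutation p was 0.1, the smallest possible. ALDH1B1 held the remainder, since the other two had no reads.

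Per kilobase of transcript, ALDH1A3 was the most abundant of all 19 aldehyde dehydrogenase genes examined, in both groups, and ALDH1B1 ranked 6 in both. The clear lead of ALDH1A3 in shCCN3 cells rests on the lengths. Without them, ALDH1A3 and ALDH7A1 had 165 ± 21.1 and 162 ± 4.43 CPM in these cells (SD, n = 3 each). The 4 ALDH1 genes made up 32.1 ± 1.75% of the summed level of the 19 in shCTRL and 29.5 ± 1.90% in shCCN3 cells (SD, n = 3 each, exact permutation p = 0.3). The sum over all 19 was 201 ± 5.68 and 204 ± 4.46 CPM per kilobase (SD, n = 3 each, exact permutation p = 0.6). ALDH2, the main mitochondrial enzyme for acetaldehyde, had at most 5 counts in a library.

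**Figure D3:**
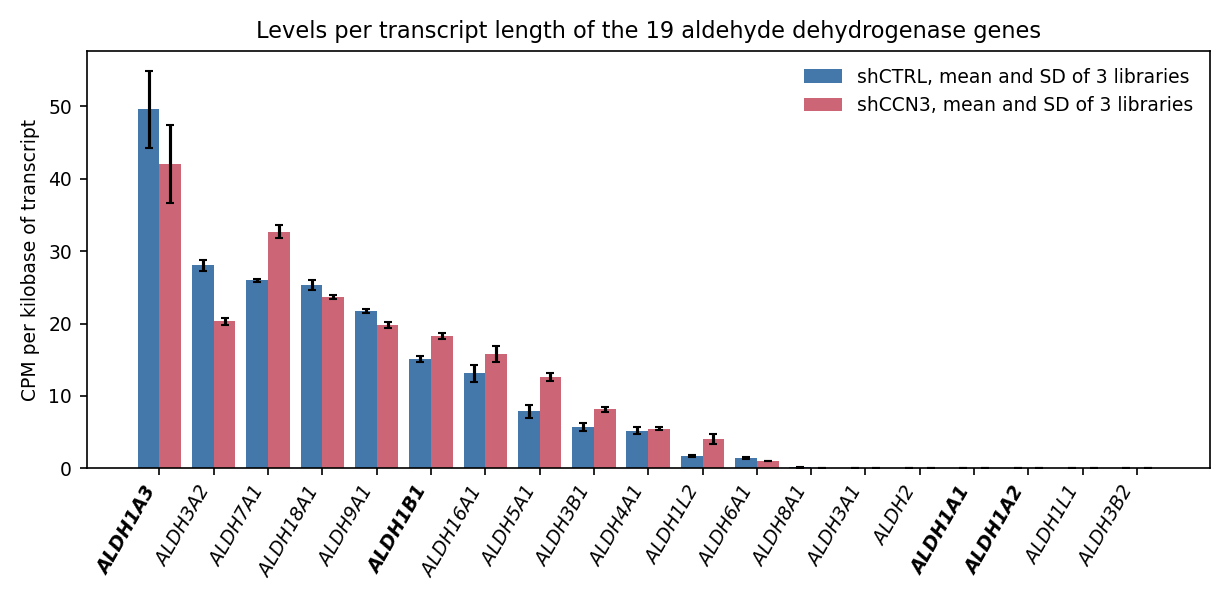
CPM per kilobase of the principal transcript for 19 aldehyde dehydrogenase genes, ordered by the shCTRL mean, with bars at the mean and error bars of 1 SD (n = 3 per group), the ALDH1A genes and ALDH1B1 in bold. ALDH1A3 stands highest in both groups (49.6 and 42.0), ALDH1B1 is 15.1 and 18.3, and ALDH1A1 and ALDH1A2 are at 0.

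Of the 15 other aldehyde dehydrogenases, 11 were tested, 5 rose and 2 fell, with a median log2 change of 0.08. The share of those tested that passed was 63.6%. The counts of this list and of those below stand beside 33.4% of all genes tested, 16.2% higher and 17.3% lower. ALDH1L2, a mitochondrial folate enzyme, rose from 12.8 ± 0.728 to 30.6 ± 4.99 CPM, a log2 change of 1.25 (adjusted p = 5.70e-05, edgeR). ALDH5A1, which oxidises succinate semialdehyde in the breakdown of GABA, rose from 17.9 ± 2.07 to 28.6 ± 1.34 CPM, a log2 change of 0.67. ALDH6A1, which acts in valine breakdown, fell from 8.08 ± 0.677 to 5.53 ± 0.196 CPM, a log2 change of -0.55 (SD, n = 3 in each group of these genes). The others that passed, ALDH3B1, ALDH7A1 and ALDH16A1 upward and ALDH3A2 downward, are named to complete the count and were chosen after their values were seen.

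Genes of the retinoid pathway, in which the ALDH1A enzymes act, changed in both directions. Of 19 genes, 14 were tested, 3 rose and 5 fell, with a median log2 change of -0.09. The share that passed was 57.1%, against 33.4% of all genes tested. STRA6, the membrane receptor for retinol uptake, rose from 0.594 ± 0.122 to 2.44 ± 0.338 CPM, a log2 change of 2.03 (adjusted p = 9.72e-05, edgeR). RDH5, one of several retinol dehydrogenases, fell from 4.82 ± 1.23 to 0.748 ± 0.243 CPM, a log2 change of -2.67 (adjusted p = 7.48e-05, edgeR). CRABP2, which carries retinoic acid to its nuclear receptors, fell from 4.16 ± 0.467 to 1.38 ± 0.0319 CPM, a log2 change of -1.59 (adjusted p = 3.78e-05, edgeR; SD and n = 3 throughout). All 3 were low in abundance. The other 5 that passed were RXRB and RDH10 upward and CYP26B1, RXRA and RARA downward, named to complete the count. RDH10, also a retinol dehydrogenase and more abundant than RDH5, rose from 16.1 ± 0.260 to 20.0 ± 1.30 CPM. Its log2 change was 0.32 (adjusted p = 0.0109, edgeR).

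PROM1 (chromosome 4 from 15968228 to 16084023), which encodes a pentaspan membrane glycoprotein, had 0 counts in 5 libraries and 2 counts in shCCN3 replicate 3, under the floor of 3. No difference was detectable at this depth. THY1 (Gene ID 7070, chromosome 11 from 119415476 to 119424985), a membrane glycoprotein also typical of fibroblasts, was abundant, with 815, 871 and 919 CPM in the shCTRL libraries and 795, 846 and 748 CPM in the shCCN3 libraries. The groups overlapped. The means were 868 ± 52.0 and 797 ± 49.0 CPM (SD, n = 3 each), and the log2 change was -0.12 (standard error 0.068, 95% interval -0.28 to 0.03, adjusted p = 0.197, edgeR). Without shCCN3 replicate 2, it was -0.17 and passed the threshold (adjusted p = 0.047), and without shCTRL replicate 3 or shCCN3 replicate 3 it was -0.081 (adjusted p = 0.507 and 0.461). USP2-AS1, a long noncoding RNA whose span covers THY1, had 0.526 ± 0.157 and 0.980 ± 0.153 CPM (SD, n = 3 each), a level far below that of THY1. Its log2 change was 0.89 (adjusted p = 0.035, edgeR), and the groups did not overlap.

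NES (Gene ID 10763, chromosome 1 from 156668763 to 156677407) had the largest change of the 7 and the lowest level. Its read counts were 127, 114 and 136 in the shCTRL libraries and 20, 39 and 35 in the shCCN3 libraries. Each shCCN3 library had fewer reads than any shCTRL library. NES fell from 1.90 ± 0.114 to 0.513 ± 0.208 CPM (SD, n = 3 each), with a coefficient of variation of 40.5% among the shCCN3 libraries. The log2 change was -1.90 (standard error 0.287, 95% interval -2.55 to -1.25, adjusted p = 0.000884, edgeR), and it lay between -2.18 and -1.60 with each library left out in turn. Over the 1737 genes tested on chromosome 1, the median log2 change was -0.13, and 38.5% of them had a value above 0. The 24 tested genes nearest to NES had a median of 0.0065. The part of the chromosome 1 shift in the change of NES was not tested.

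BMI1 (Gene ID 648, chromosome 10 from 22321099 to 22331706) had 51.0, 40.7 and 42.7 CPM in the shCTRL libraries and 47.9, 39.3 and 53.9 CPM in the shCCN3 libraries. The groups covered nearly the same range. The means were 44.8 ± 5.47 and 47.0 ± 7.33 CPM (SD, n = 3 each). The log2 change was 0.07 (standard error 0.123, adjusted p = 0.702, edgeR), with a 95% interval from -0.21 to 0.35, and it was -0.038 without shCCN3 replicate 3 (adjusted p = 0.860). BMI1 shares exons with the readthrough gene COMMD3-BMI1, which held between 4.54 and 12.9% of the summed reads of both and had a log2 change of -0.29 (adjusted p = 0.561). With both added together the log2 change was 0.04 (adjusted p = 0.818, edgeR).

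**Figure D4:**
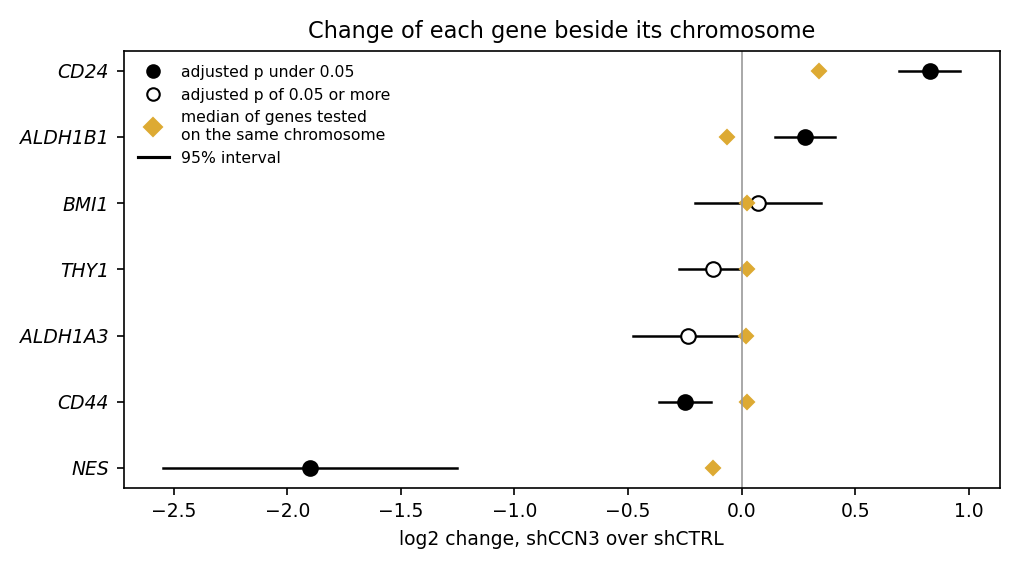
Log2 change of shCCN3 over shCTRL with its 95% interval for the 7 genes tested, filled where the adjusted p was under 0.05, with a diamond at the median of the genes tested on the same chromosome. CD24 (0.83) stands above a raised chromosome 6 median (0.34), ALDH1B1 (0.28) and CD44 (-0.25) lie on either side of 0, NES is lowest (-1.90), and the intervals of BMI1, THY1 and ALDH1A3 include 0.

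The list of 16 genes around CD44 holds enzymes of hyaluronan turnover, linkers of CD44 to the cytoskeleton, other ligands and splicing factors. Of the 12 tested, 2 rose and 1 fell, with a median log2 change of 0.04, and 5 passed without shCCN3 replicate 2. With all libraries, 25% of those tested passed, against 33.4% of all genes tested. HAS3, a hyaluronan synthase, fell from 8.19 ± 0.898 to 2.28 ± 0.300 CPM, a log2 change of -1.84 (adjusted p = 1.38e-05, edgeR). HAS2, another synthase, had 9.94 ± 1.09 and 10.2 ± 1.59 CPM and did not pass. EZR, which encodes ezrin, a linker of CD44 to actin, rose from 126 ± 2.62 to 203 ± 4.70 CPM, a log2 change of 0.68 (adjusted p = 1.77e-05, edgeR). EZR, like CD24, lies on chromosome 6. CEMIP2, a cell surface hyaluronidase, rose from 49.3 ± 4.21 to 66.5 ± 9.92 CPM, a log2 change of 0.43 (adjusted p = 0.0148, edgeR; SD and n = 3 throughout). ESRP1 and ESRP2, which promote the inclusion of CD44 variant exons, had at most 0.450 CPM in a library.

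A list of 17 genes holds other subunits of polycomb repressive complex 1, to which BMI1 belongs, and CDKN2A. All 17 were tested, 3 rose and 3 fell, with a median log2 change of 0.06. The share that passed, 35.3%, was near the 33.4% of all genes tested. PHC2, a polyhomeotic subunit, fell from 247 ± 6.71 to 121 ± 6.15 CPM, a log2 change of -1.03 (adjusted p = 3.11e-06, edgeR). SCMH1, a protein associated with the complex, fell from 58.8 ± 1.51 to 45.2 ± 1.94 CPM, a log2 change of -0.38. PCGF5, a homologue of BMI1 in variant forms of the complex, rose from 46.2 ± 3.03 to 61.4 ± 4.85 CPM, a log2 change of 0.41 (SD, n = 3 in each group of these genes). The others that passed, RING1 and PCGF3 upward and CBX6 downward, are named to complete the count. CDKN2A, a classical target repressed by BMI1, had 0.738 ± 0.259 and 0.852 ± 0.219 CPM and did not pass (adjusted p = 0.659). It had only 32 to 75 counts in a library, and BMI1 activity was not measured.

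Of 18 other stem cell markers, 12 were tested, 3 rose and 5 fell, with a median log2 change of -0.18. The share that passed was 66.7%, against 33.4% of all genes tested. NT5E (CD73), an ecto-nucleotidase, fell from 205 ± 18.8 to 111 ± 8.94 CPM, a log2 change of -0.89 (adjusted p = 5.78e-05, edgeR). ITGA6 (CD49f), a laminin-binding integrin subunit of basal mammary cells, fell from 96.5 ± 10.9 to 59.1 ± 10.0 CPM, a log2 change of -0.71 (adjusted p = 0.00241, edgeR). ALCAM (CD166), a cell adhesion molecule, rose from 352 ± 18.8 to 530.5 ± 46.5 CPM, a log2 change of 0.59 (adjusted p = 0.000345, edgeR; SD and n = 3 throughout). EPCAM, CXCR4, ABCB1, LGR5, SOX2 and NANOG did not pass the filter on low counts. LGR5 had 0, 0 and 3 counts in the shCTRL libraries and 20, 11 and 9 in the shCCN3 libraries. SOX2 had 8, 10 and 0 counts in the shCTRL libraries and 0 in each shCCN3 library. Neither difference was tested. Of a list of 10 relatives of NES and PROM1, made of intermediate filament genes and PROM2, none of the 3 tested passed in edgeR, DESeq2 or limma-voom, while 2 had an unadjusted p under 0.05 in edgeR and 1 passed without shCCN3 replicate 2. VIM, the filament partner of nestin, had a log2 change of -0.14 (adjusted p = 0.0961).

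**Figure D5:**
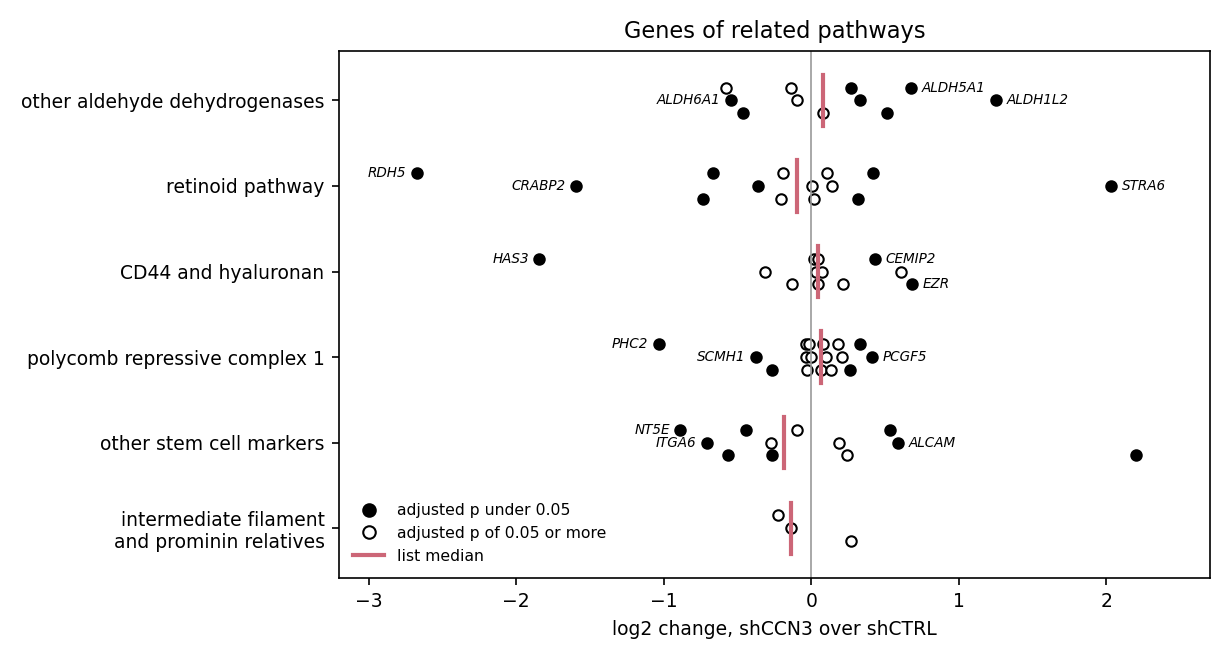
Log2 change of shCCN3 over shCTRL for the tested genes of 6 related lists, 1 point per gene, filled where the adjusted p was under 0.05, with a bar at the list median and names at the genes described. The medians lie between -0.18 and 0.08 and filled points stand on both sides of 0 in each list but the last, which has none.

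Of the genes in these lists, 7 of those tested lie on chromosome 6 with CD24. Of these, 5 rose (ALDH5A1, RXRB, EZR, RING1 and POU5F1), NT5E fell, and ALDH8A1 did not pass the test. The part of the chromosome-wide shift in these values was not tested.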

How the data were processed

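Poly(A) RNA of 3 shCTRL and 3 shCCN3 samples of Hs578T cells was sequenced from a stranded library kit. The submitters' processing notes list bcl2fastq 2.20.0, Trimmomatic, HISAT2 2.1.0, StringTie and DESeq2 with GRCh38. The annotation and the strand setting of the counting are not given in the sources used here. The authors deposited raw read counts per NCBI Gene ID, without normalization.

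edgeR 4.0.16 (R 4.3.3) gave CPM and log2 changes, with TMM factors, filtering by group (17419 genes left), the quasi-likelihood test and Benjamini-Hochberg adjustment over all genes tested. The 95% intervals use the moderated degrees of freedom (9.12). Levels per length use the longest principal transcript of GENCODE 29. Positions and upstream sequences come from RefSeq (GRCh38.p14), where 44698 Gene IDs matched and 9 of the 10 markers had an upstream sequence. A prior count of 1 was used for the ratio of CD44 to CD24. Exact permutation tests over 6 libraries cannot go below p = 0.1.

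The members, the gene lists and the tests were chosen with earlier results of these data known. Named are the 10 markers, CCN3, genes overlapping a marker, and from each list at most 3 genes with the largest change among those with an adjusted p under 0.05, no overlap of groups and a mean of at least 1 CPM. Other names complete a count or are undetected, untested or unchanged relatives, chosen after their values were seen. Scripts were tested on simulated data. The alternatives were DESeq2's size factors, upper-quartile or library-total scaling, no filter, a minimum of 10 counts in every sample, limma-voom (limma 3.58.1), DESeq2 1.42.0, the replicate block and each library left out.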

Additional observations from a re-analysis of the deposited data

How the results depend on the processing

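CD44, CD24, ALDH1B1 and NES kept direction and passed, and ALDH1A3 kept direction and did not pass, under all 14 alternatives. CD44 ranged from -0.27 to -0.23 and CD24 from 0.80 to 0.86. Without shCCN3 replicate 2, THY1 passed (-0.17, adjusted p = 0.047), and with each library left out it lay between -0.17 and -0.081. Without shCCN3 replicate 3, BMI1 changed sign (-0.038, adjusted p = 0.860), and with each library left out it lay between -0.038 and 0.19. With each library left out, the called members numbered 4 to 5, the called genes of the list around CD44 and hyaluronan 2 to 5 (5 without shCCN3 replicate 2, 3 with all libraries), those of the intermediate filament list 0 to 1 (1 without shCCN3 replicate 2), and all called genes 4181 to 7229. The difference of the log2 CD44 to CD24 ratio was -1.11 to -1.05 with each library left out. That of the summed ALDH1 level was -7.22 to -1.36 CPM per kilobase. Union exon lengths, an alternative chosen after seeing the data, gave -1.996 for that sum, against -4.32. Without lengths, the difference of the ALDH1 sum was -19.7 CPM. The ratio is the same under any library scaling. The scalings moved the median of all genes to at most 0.03 and the share of higher calls from 48.3 to 50.7%.

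The labels do not say whether the replicate numbers pair the samples. The correlation of deviations was 0.18, -0.10 and -0.35 for numbers 1 to 3. Samples with unlike numbers were not compared, so these values do not settle the pairing. The replicate block gave 4887 called genes against 5825 and 4 called members, and changed no call of a member. Depth limits ALDH1A1, ALDH1A2 and PROM1, for which levels under the floor of 3 counts could not be compared.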
